A study of Mus musculus with 5 samples.

Results

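Atf4, a regulator of amino acid supply, was examined in mouse lens together with 9 genes that make or import amino acids. The 10 genes were chosen by name, with earlier results of these data known. They were Atf4, the enzyme genes Asns, Phgdh, Psat1 and Psph, and the transporter genes Slc7a5, Slc3a2, Slc7a11, Slc1a5 and Slc7a1. All 10 had a row among the 12370 gene symbols of the count table, and all 10 were among the 12035 genes that passed the filter on low counts. RNA came from lenses of embryos at embryonic day 14, with 3 control libraries and 2 libraries from N-myc knockout lenses. The knockout embryos were Mlr10-Cre+/- and N-myc loxP/loxP, so they carried a Cre transgene that is active in the lens, and N-myc on both alleles was flanked by loxP sites. Controls were Cre-/- and also carried loxP-flanked N-myc, either alone or with loxP-flanked c-myc, and the sources used here do not say which genotype each control library had. All groups therefore shared the floxed N-myc alleles, while the transgene was present in the knockout group alone, so effects of the transgene and of the deletion cannot be told apart. Lysates of single animals were pooled before the RNA was purified, and the sources used here do not give the number of animals per pool.

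ATF4 is a transcription factor of the integrated stress response. When kinases that sense missing amino acids or misfolded protein phosphorylate the translation factor eIF2, most protein synthesis slows while the Atf4 transcript is translated more. ATF4 protein then pairs with C/EBP factors and activates genes for amino acid synthesis and uptake, so its activity is set largely by translation, which counts of its RNA do not measure. MYC proteins are also known to raise the expression of many amino acid transporters and synthesis enzymes in growing cells. The lens builds very large amounts of crystallin protein in its fibre cells and holds much glutathione, whose synthesis needs imported cystine.

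The libraries held between 13162384 and 13746416 counts each. Lens markers were abundant, with 14 of 14 in the table and a summed level of 99800 to 121000 CPM (a gene's count relative to its library's scaled total) in the controls and of 90000 and 105000 CPM in knockout replicates 1 and 2. Of the 14, 5 were called lower and 0 higher (edgeR), and their mean log2 level (with 1 added to the CPM) was 10.99 to 11.15 in the controls and lower in both knockouts, at 10.60 and 10.89. The knockout libraries stood apart from each other, at 50.3 and 11.9 on principal component 1 (62.3% of the variance), where the controls lay between -21.4 and -19.7. Summed retina and macrophage markers were higher in both knockout libraries than in any control, while the summed mesenchyme markers lay above every control in knockout replicate 1 alone. The 9 retina markers of 12 in the table summed to 178 to 294 CPM in the controls and to 353 and 480 CPM in knockout replicates 1 and 2. Of the 9, 7 were called higher and 0 lower (edgeR). The 11 periocular mesenchyme markers of 12 summed to 606 to 895 CPM in the controls and to 2380 and 776 CPM. Among these 11 markers, 5 were called higher and 0 lower (edgeR). Their mean log2 level was 3.51 to 4.68 in the controls and 6.21 and 4.55 in knockout replicates 1 and 2. The 8 macrophage markers of 10 summed to 20.9 to 23.1 CPM and to 31.6 and 36.4 CPM, and of the 7 tested, 1 was called higher and 0 lower. Endothelial markers (10 of 10) gave 268 to 319 CPM in the controls and 272 and 280 CPM in the knockouts, with 1 called lower and 0 higher. Red cell markers (10 of 12) gave 151 to 186 CPM against 113 and 120 CPM, with Hba-a1, Hba-a2, Hbb-b1, Hbb-bt and Hbb-bs at 0 in at least 1 library. Of the 5 tested, 1 was called lower and 0 higher. The part of these markers in the results below was not tested, and in bulk RNA fewer cells of a type cannot be told apart from less RNA per cell. Mycn, the deleted gene, stood at 162.0, 148.4 and 140.3 CPM in control replicates 1 to 3 and at 57.3 and 81.9 CPM in knockout replicates 1 and 2. Its knockout values lay below every control, 2.16-fold lower on the fitted scale (log2 fold change -1.11, SE 0.15, edgeR adjusted p = 0.0097).

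Among the 10 genes, 4 were lower in the knockout lenses, 0 were higher and 6 did not pass the test. The 4 were Asns, which makes asparagine, Psat1 of the serine pathway, and the transporter genes Slc7a11 and Slc7a1, with fitted falls of 1.36-fold to 1.82-fold. In the same fit 8.51% of all tested genes were lower, 7.98% were higher and 16.5% passed in either direction (edgeR quasi-likelihood test, Benjamini-Hochberg adjusted p under 0.05 over all 12035 genes). Phgdh was the 1 gene of the set with an unadjusted p under 0.05 and a higher level, and DESeq2 and limma-voom also called 0 genes of the set higher and 4 lower. The median log2 fold change of the 10 genes was -0.32, against 0.00 over all tested genes. Because the set was chosen with earlier results of these data known, these comparisons with all genes are not independent support. Control and knockout ranges were fully separate for 5 of the 10 genes (4 lower, 1 higher) and for 52.5% of all tested genes, so that share is near the background. With library totals as the only scaling, 3 of the 10 genes were lower and 1 was higher, and over all genes the split was 637 lower and 1511 higher, against 1024 lower and 960 higher with the main scaling.

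**Figure D1:**
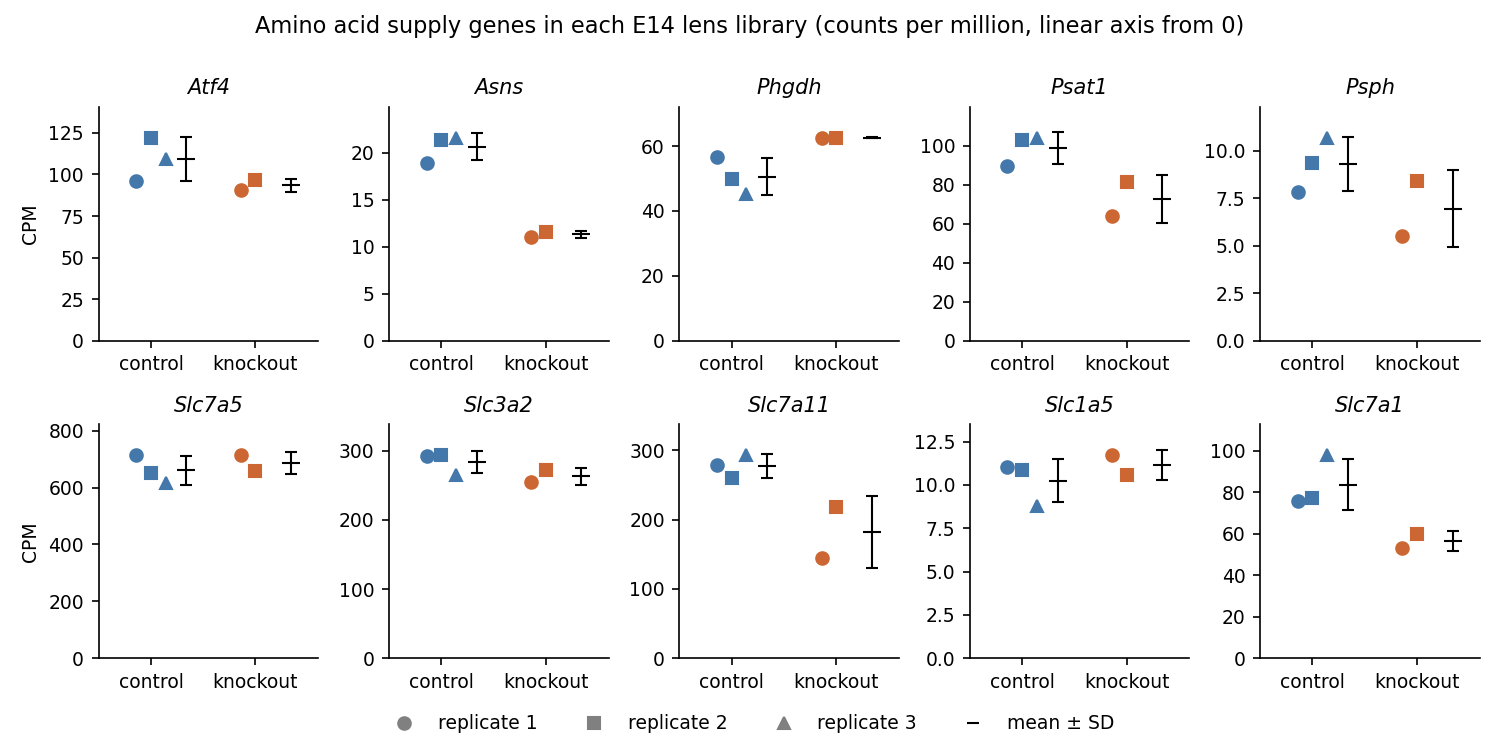
Level of each gene in every library (y axis: CPM, linear, from 0; blue: control, orange: knockout; symbols: replicate number; black: mean ± SD over 3 control or 2 knockout libraries). Both knockout libraries lie below every control for Asns, Psat1, Slc7a11 and Slc7a1 and above every control for Phgdh, while the other 5 genes overlap.

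Levels of different genes were compared per length, as control CPM per kilobase of the longest coding transcript in GENCODE vM21, which is an assumption about the isoform used. Slc7a5 was the most abundant at 188 ± 14.4 CPM per kilobase (SD, n = 3), above 99.2% of tested genes. Its partner Slc3a2 followed at 101 ± 5.71, then Atf4 at 63.3 ± 7.63, Psat1 at 37.8 ± 3.16, Slc7a11 at 30.1 ± 1.81 and Phgdh at 26.7 ± 2.98. Slc7a1 (11.7 ± 1.74), Asns (10.3 ± 0.731), Psph (5.36 ± 0.826) and Slc1a5 (3.70 ± 0.45) were the lowest. Slc7a11 and Phgdh overlapped over the control libraries, as did Slc7a1 and Asns, and the ranges of the other neighbours in this order did not overlap. The genes that fell held ranks 4 (Psat1), 5 (Slc7a11), 7 (Slc7a1) and 8 (Asns) in this order, and the most abundant carrier pair of the set was not among them.

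Atf4 (chromosome 15, 80255184 to 80257541, GRCm38) stood at 95.9, 122.2 and 109.4 CPM in control replicates 1 to 3 and at 90.8 and 96.4 CPM in knockout replicates 1 and 2. Knockout replicate 2 lay just above control replicate 1, so the groups overlapped. The log2 fold change was -0.22 (SE 0.11, 95% interval -0.47 to 0.03, edgeR adjusted p = 0.19). The transcript thus did not pass the test, and the interval reaches from a moderate decrease to no change.

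Asns, asparagine synthetase, converts aspartate to asparagine with glutamine as the nitrogen donor and is a classical ATF4 target. The gene lies on chromosome 6, 7675169 to 7693254 (GRCm38, minus strand). Its counts were 242, 282 and 285 in the controls, against 155 and 162 in the knockouts, which is 19.0, 21.4 and 21.6 CPM against 11.1 and 11.6 CPM. Both knockout libraries were close to each other and far below every control. Asns fell 1.82-fold (log2 fold change -0.86, SE 0.14, edgeR adjusted p = 0.013), the largest change in the set. It passed in 10 of 13 alternatives, with log2 fold changes of -0.92 to -0.68, and missed the threshold without control replicate 2 (adjusted p = 0.066), without control replicate 3 (0.054) and with a replicate block and the length and GC trends removed (0.089), within a range of 0.00014 to 0.089.

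ATF4 and its C/EBP partners bind a composite element, and its core, TGATGNAA, was searched on both strands of the RefSeq promoter windows (250 bases before to 50 after a gene's start, GRCm38.p6). Windows were found for 8 of the 10 genes (Slc7a5 and Slc1a5 had none in the table), and 2 of these 8, Asns and Slc7a11, held a match, which 3.97% of all 32851 windows did. The E-box CACGTG, the element bound by MYC with MAX, was in 0 of the 8 genes' windows and in 7.15% of all windows. Both genes with a match were among the 4 that fell, and Psat1 and Slc7a1, which also fell, had none in their windows. The genes were chosen partly as known ATF4 targets, so a share above that of all windows is not independent support. The shares also differ in unit, genes against windows, and Psat1 and Slc7a1 had several windows. A match is a description of letters and not evidence of binding. The Asns match is shown with its flanks, 30 bases at chr6:7693214-7693243 on the minus strand, read 5′ to 3′, with the match in capitals. Its first base is at position -23, where -1 is the base before the RefSeq start. In GENCODE vM21 the gene begins at 7693254 on this strand, so the 30 bases lie within its annotated span there.
Asns: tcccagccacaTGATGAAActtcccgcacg

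For Slc7a11 the 150 bases before the RefSeq start are shown, chr3:50443614-50443763 on the minus strand, 5′ to 3′, because they hold 2 matches, in capitals. The first begins at -66 and reads in the gene's direction, and the second begins at -47 and reads on the opposite strand, so the matches face each other.
Slc7a11: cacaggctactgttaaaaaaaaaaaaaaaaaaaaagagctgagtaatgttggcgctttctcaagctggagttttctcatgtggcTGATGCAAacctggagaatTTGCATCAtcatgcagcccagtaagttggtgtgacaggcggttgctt

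Of the 3 serine pathway genes, 1 fell and 2 did not pass the test. Phgdh encodes the dehydrogenase that takes the first step from glycolysis to serine, Psat1 the aminotransferase of the next step and Psph the phosphatase that releases serine. Psat1 (chromosome 19, 15904678 to 15947337) stood at 89.3, 103.0 and 104.1 CPM in the controls and at 63.8 and 81.3 CPM in the knockouts. The groups did not overlap, and knockout replicate 1 was the lower of the knockout libraries. Psat1 fell 1.36-fold (log2 fold change -0.45, SE 0.12, edgeR adjusted p = 0.045). Without knockout replicate 1 its log2 fold change was -0.28 (adjusted p = 0.25, the highest of 13 alternatives, lowest 0.0096), and it passed in 7 of the 13.

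Phgdh (chromosome 3, 98313170 to 98339990) went the other way, at 56.5, 49.7 and 45.3 CPM in the controls and at 62.6 CPM in both knockout libraries. Both knockout values were above every control. The log2 fold change was 0.31 (SE 0.11, 95% interval 0.07 to 0.55, edgeR adjusted p = 0.077), so it did not pass. It passed with library totals as the only scaling (adjusted p = 0.037) and without control replicate 1 (0.036), in a range of 0.036 to 0.50 over 13 alternatives. In the annotation 1 pseudogene is named after Phgdh, and reads it shares with the gene could not be separated here.

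Psph (chromosome 5, 129765558 to 129787449) was low in all libraries, at 7.84, 9.34 and 10.7 CPM in the controls and 5.51 and 8.39 CPM in the knockouts. The groups overlapped, and the log2 fold change of -0.42 had a wide error (SE 0.23, 95% interval -0.96 to 0.12, edgeR adjusted p = 0.24). Psph is also uncertain because 452 bases of its exons overlap those of Cct6a on the opposite strand, and the sources used here give no strand setting for the counting. Cct6a, a chaperonin subunit gene looked up for this reason, was far more abundant, at 354 ± 19.5 CPM in the controls (SD, n = 3) and 219 ± 24.8 CPM in the knockouts (SD, n = 2), and fell 1.62-fold (edgeR adjusted p = 0.011).

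The opposite directions of Phgdh and Psat1 can be read within each library as the ratio of their counts, in which library scaling cancels. A trend on GC content does not cancel, and the transcripts had 57.2% (Phgdh) and 48.4% GC (Psat1). With length and GC trends removed the log2 fold changes were 0.18 (Phgdh) and -0.35 (Psat1), against 0.31 and -0.45 in the main fit. The ratio of Phgdh to Psat1 was 0.633, 0.483 and 0.435 in the controls, against 0.982 and 0.770 in the knockouts. It was higher in both knockout libraries than in any control. The exact permutation test over samples gave p = 0.2 (two-sided), and 0.3 adjusted over the 3 ratios computed here. This test doubles the smaller tail, and 0.2 is the smallest value it can give for 3 against 2 libraries. This ratio was chosen after the values of the genes were seen. It describes these libraries and does not show that the genes changed unequally, or which of them changed.

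Of the 5 transporter genes, 2 fell and 3 did not pass the test. Slc7a11 encodes xCT, the exchanger that imports cystine for glutamate and so feeds glutathione synthesis. It lies on chromosome 3, 49892526 to 50443614 (minus strand), and stood at 278.4, 260.5 and 293.8 CPM in the controls and at 145.4 and 219.0 CPM in the knockouts. The groups did not overlap, but the knockout libraries differed from each other by more than the controls did. Slc7a11 fell 1.52-fold (log2 fold change -0.61, SE 0.16, edgeR adjusted p = 0.041). Without knockout replicate 1 the log2 fold change was -0.34 (adjusted p = 0.15) and without knockout replicate 2 it was -0.93 (0.0017), and the gene passed in 6 of 13 alternatives, with adjusted p from 0.0016 to 0.15. Mycn was also lower in knockout replicate 1 than in replicate 2, and the mesenchyme markers were highest in knockout replicate 1. The part of either in the difference between the knockout libraries was not tested.

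Slc7a1 encodes CAT-1, a carrier for arginine, lysine and ornithine (chromosome 5, 148327410 to 148399904). It stood at 75.9, 77.1 and 98.1 CPM in the controls and at 53.2 and 59.8 CPM in the knockouts. Both knockout libraries were below every control, and control replicate 3 was the highest. Slc7a1 fell 1.48-fold (log2 fold change -0.57, SE 0.13, edgeR adjusted p = 0.029). It passed in 10 of 13 alternatives with adjusted p from 0.0020 to 0.15, and missed the threshold without control replicate 2 (0.081), control replicate 3 (0.068) or knockout replicate 1 (0.15).

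Slc7a5 encodes LAT1, which exchanges leucine and other large neutral amino acids, and Slc3a2 the heavy chain that brings LAT1 and xCT to the cell surface. Slc7a5 (chromosome 8, 121881150 to 121907694) was at 715.7, 652.3 and 615.3 CPM in the controls and at 714.9 and 659.9 CPM in the knockouts, so the groups overlapped fully. Its log2 fold change was 0.06 (SE 0.099, 95% interval -0.17 to 0.29, edgeR adjusted p = 0.71), and its sign turned with length and GC trends removed (-0.21, adjusted p = 0.11). Slc3a2 (chromosome 19, 8706882 to 8723369) was at 292.6, 294.3 and 265.7 CPM and at 254.6 and 271.9 CPM, again overlapping. Its log2 fold change was -0.11 (SE 0.087, 95% interval -0.31 to 0.09, edgeR adjusted p = 0.39). The intervals of both genes leave out a decrease as large as the fitted 1.48-fold fall of Slc7a1, although the differences between these genes were not tested.

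The shared heavy chain gives 2 further ratios within libraries. GC content does not cancel in these either, at 56.3% (Slc7a5), 53.4% (Slc3a2) and 40.7% (Slc7a11). With length and GC trends removed the log2 fold changes were -0.21, -0.20 and -0.48 in that order, against 0.06, -0.11 and -0.61 in the main fit. The ratio of Slc7a5 to Slc3a2 counts was 2.33 ± 0.115 in the controls (SD, n = 3) and 2.62 ± 0.269 in the knockouts (SD, n = 2), with overlapping ranges (exact permutation p = 0.4, two-sided, adjusted 0.4). The ratio of Slc7a11 to Slc3a2 counts was 0.951, 0.885 and 1.11 in the controls, against 0.571 and 0.806 in the knockouts. It was lower in both knockout libraries than in any control (exact permutation p = 0.2, two-sided, adjusted 0.3).

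Slc1a5 encodes ASCT2, a carrier of glutamine and small neutral amino acids (chromosome 7, 16781340 to 16798274). It was the least abundant of the set per length, at 11.1, 10.9 and 8.80 CPM in the controls and 11.7 and 10.6 CPM in the knockouts. The groups overlapped, and the log2 fold change was 0.12 (SE 0.17, 95% interval -0.26 to 0.51, edgeR adjusted p = 0.63). With length and GC trends removed it was -0.09 (adjusted p = 0.73).

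**Figure D2:**
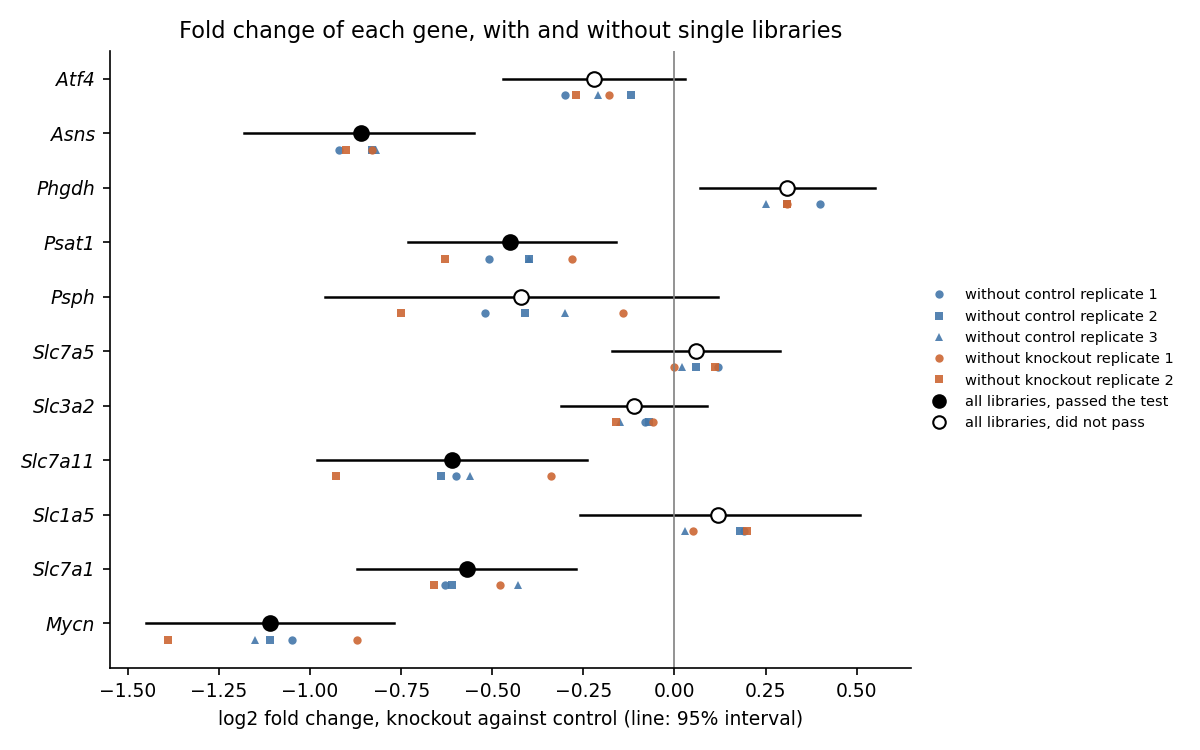
Fitted log2 fold change, knockout against control (x axis), of each gene and of Mycn, with the 95% interval as a line (filled circle: passed at adjusted p under 0.05; open: did not pass). The small symbols below each line are the fits without 1 library (blue: a control left out, orange: a knockout left out), and Slc7a11, Psat1, Psph and Mycn moved most with the knockout library left out.

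The calls rested on few libraries. With control replicate 2 left out, 0 of the 10 genes passed in edgeR, and 4 were lower and 1 higher at an unadjusted p under 0.05. In that fit only 0.142% of all tested genes were lower at the adjusted threshold. With control replicate 3 left out 0 genes of the set passed (4 lower and 0 higher at an unadjusted p under 0.05), with 0.875% of all tested genes lower. Without knockout replicate 1, Asns alone was lower (adjusted p = 0.045), with 0.937% of all tested genes lower. Without knockout replicate 2, Asns, Psat1, Slc7a11 and Slc7a1 were lower, as with all libraries.

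The fold changes of the set went along with the GC content of the transcripts. The 4 genes that fell had the lowest GC content of the 10, at 40.7% (Slc7a11), 47.7% (Asns), 48.4% (Psat1) and 51.3% (Slc7a1), and the other 6 lay between 53.4% and 57.2%. The same held across the table. Of 5248 tested genes with a GC content of 40% to 50%, 12.0% were lower and 3.51% higher, and of 4690 with 50% to 58%, 3.86% were lower and 10.3% higher. After correction for each library's trend on the length and GC content of transcripts, Asns (log2 fold change -0.70, adjusted p = 0.015) and Slc7a1 (-0.81, 0.023) were lower, while Psat1 (-0.35, 0.071) and Slc7a11 (-0.48, 0.083) did not pass. In that fit 6.13% of all tested genes were lower, and 9 of the 10 genes had a log2 fold change below 0, against 7 without the correction.

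**Figure D3:**
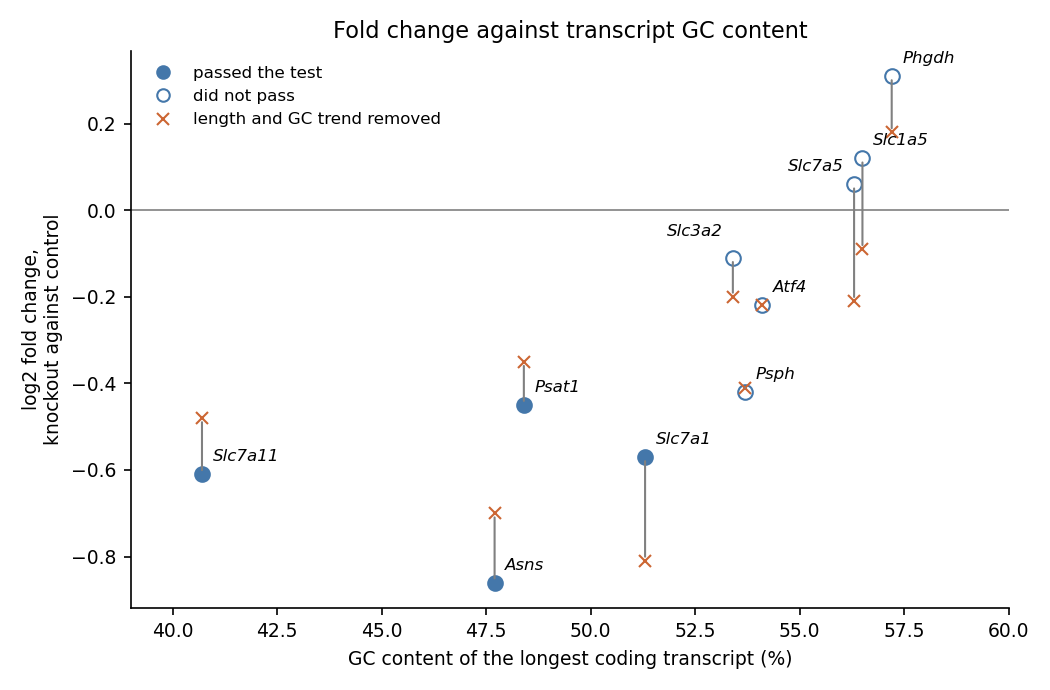
Log2 fold change, knockout against control (y axis), against the GC content of the longest coding transcript in percent (x axis) for the 10 genes (filled: passed, open: did not pass; cross: value with each library's length and GC trend removed). The genes that passed lie at 40.7% to 51.3% GC, and the correction moves Slc7a5 and Slc1a5 from above 0 to below 0.

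The wider pathway was read from 7 lists of genes, written with earlier results of these data known. Their shares beside those over all tested genes are therefore not independent support. Without control replicate 2, 0 genes of these lists passed in edgeR, where 1 to 11 genes a list were lower and 0 to 5 higher at an unadjusted p under 0.05. Among 18 tested genes that set or oppose eIF2 signalling, 4 fell and 1 rose, with a median log2 fold change of -0.16. These are 22.2% and 5.56% of the list, against 8.51% and 7.98% of all tested genes. DESeq2 gave 5 lower and limma-voom 3. In edgeR the number lower was 1 with library totals only, with the replicate block or without control replicate 3. It was 0 with the replicate block and length and GC trends removed. Without knockout replicate 1 the list's median log2 fold change was -0.1. Eif2s1, the eIF2 subunit that is phosphorylated in the stress response, fell from 142 ± 11.5 to 86.5 ± 7.64 CPM, with a log2 fold change of -0.71 (SE 0.10) and an edgeR adjusted p of 0.01. Nfe2l2, the gene for NRF2, which is also known to activate Slc7a11, fell with a log2 fold change of -0.35, Eif2b5, a subunit of the exchange factor for eIF2, with -0.31, and Ppp1r15b, which helps to remove the phosphate from eIF2, with -0.36. The 1 gene that rose was Eif2ak3, the eIF2 kinase PERK (log2 fold change 0.39, edgeR adjusted p = 0.0487), named here after its value was seen. Eif2s1 passed in 11 of 13 alternatives, and Nfe2l2, Eif2b5, Ppp1r15b and Eif2ak3 in 4 to 6. With length and GC trends removed Nfe2l2 was at -0.20 (adjusted p = 0.11) and Eif2ak3 at 0.25 (0.15).

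Of 15 tested stress and death genes known as ATF4 targets, 1 fell and 1 rose. Each is 6.67% of the list, under the shares over all tested genes (8.51% lower and 7.98% higher). The median log2 fold change was -0.07 (0.01 with library totals only), and 8 further genes of the list had no row in the table. Ero1l, an oxidase of the endoplasmic reticulum, fell from 62.5 ± 5.0 to 48.0 ± 0.84 CPM (log2 fold change -0.38, edgeR adjusted p = 0.036). It passed in 5 of 13 alternatives and was at -0.14 (adjusted p = 0.38) with length and GC trends removed. Vldlr, a lipoprotein receptor, rose from 257 ± 11.4 to 320 ± 12.1 CPM (0.32, edgeR adjusted p = 0.04), and passed in 7 of 13. Ddit3, which encodes the stress factor CHOP and was singled out after its value was seen, was low at 5.64, 5.46 and 4.17 CPM in the controls and 4.65 and 5.02 CPM in the knockouts (log2 fold change -0.07, SE 0.23, edgeR adjusted p = 0.84).

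In the list of mitochondrial folate and proline synthesis, 2 of 7 tested genes fell and 0 rose in edgeR, DESeq2 and limma-voom, with 3 lower and 0 higher at an unadjusted p under 0.05. The list's median log2 fold change was -0.18, and the falls are 28.6% of the list, against 8.51% of all tested genes. With library totals only, without control replicate 3, or with the replicate block and length and GC trends removed, 1 gene of the list was lower. Without knockout replicate 1 the list's median log2 fold change was -0.3. Aldh18a1, the first enzyme of proline synthesis from glutamate, fell from 134 ± 5.81 to 86.1 ± 1.87 CPM, with a log2 fold change of -0.64 (SE 0.08) and an edgeR adjusted p of 0.0084, and passed in 12 of 13 alternatives. Mthfd1l fell with a log2 fold change of -0.40. Mthfd2, a folate enzyme known to respond to ATF4 and named here after its value was seen, had -0.42 (SE 0.13, edgeR adjusted p = 0.062) and did not pass.

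Of the 7 lists, that of tRNA charging genes had the largest share of falls. Of its 13 tested genes 10 fell, which is 76.9% against 8.51% over all tested genes, and 0 rose (11 lower and 0 higher at an unadjusted p under 0.05). DESeq2 gave 10 lower and limma-voom 8, each with 0 higher. Its median log2 fold change was -0.47. Gars, Iars, Eprs and Tars, which load glycine, isoleucine, glutamate with proline, and threonine, had log2 fold changes of -0.66, -0.71, -0.56 and -0.54. Cars, Lars, Nars, Sars, Yars and Xpot, the last a tRNA export receptor, also fell, and Aars, Mars and Wars did not pass. Earlier results of these data had already shown synthetase genes lower, so this count is not independent support. With length and GC trends removed 12 of the 13 were lower, without control replicate 2 the number was 0 (11 at an unadjusted p under 0.05), and without control replicate 3 or knockout replicate 1 it was 2.

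Among 23 tested genes of other amino acid enzymes, 6 fell and 0 rose in edgeR, DESeq2 and limma-voom (7 lower and 1 higher at an unadjusted p under 0.05), with a median of -0.18. The falls are 26.1% of the list, against 8.51% of all tested genes. In edgeR the number lower was 1 without control replicate 3 or knockout replicate 1, and 0 without control replicate 2 (6 at an unadjusted p under 0.05) or with the replicate block and length and GC trends removed (5). Asrgl1, an asparaginase and so the enzyme that undoes the Asns product, was at 17.0, 19.6 and 17.9 CPM in the controls and at 9.88 and 8.61 CPM in the knockouts. It fell with Asns, by a similar fitted size (log2 fold change -0.97, SE 0.15, edgeR adjusted p = 0.013), though the difference between the 2 genes was not tested. Bcat1, which transaminates branched-chain amino acids, fell from 68.2 ± 4.47 to 41.6 ± 8.07 CPM (-0.71), and Dld, a subunit of the glycine cleavage system and of keto acid dehydrogenases, from 67.7 ± 4.83 to 46.5 ± 9.96 CPM (-0.54). Dld was at -0.19 (adjusted p = 0.23) with length and GC trends removed and at -0.34 (0.18) without knockout replicate 1. Gcsh and Got2 fell as well.

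Of 24 tested genes for other amino acid transporters, 1 fell and 3 rose. These are 4.17% and 12.5% of the list, against 8.51% and 7.98% of all tested genes. The median log2 fold change was 0.21, and 18 of the 24 were above 0. DESeq2 gave 2 lower and 2 higher. With length and GC trends removed, 2 were lower and 1 higher, with a median of 0.10. When the replicate block was added to that correction, 0 were lower and 0 higher. Slc7a6, a light chain for basic and neutral amino acids, fell from 107 ± 7.29 to 78.4 ± 10.8 CPM (log2 fold change -0.45, edgeR adjusted p = 0.032). Slc7a7, a related light chain, rose from 8.05 ± 0.118 to 12.5 ± 0.325 CPM (0.64, edgeR adjusted p = 0.03), Slc7a8, another light chain partner of Slc3a2, from 140 ± 1.83 to 173 ± 8.58 CPM (0.30), and Slc1a2, a glutamate transporter of glia and retina, from 7.50 ± 1.09 to 11.5 ± 0.437 CPM (0.62). The macrophage and retina markers were higher in the same libraries, and their part in these rises was not tested. Each of these 4 genes passed in 4 to 8 of 13 alternatives, and Slc7a8 was at 0.13 (adjusted p = 0.20) with length and GC trends removed.

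Of 29 tested genes by which amino acids are sensed for the growth kinase mTORC1, 2 fell and 2 rose. Each is 6.9% of the list, under the shares over all tested genes (8.51% lower and 7.98% higher). The median log2 fold change was -0.06 (0.02 with library totals only). Seh1l, shared by the nuclear pore and the GATOR complex, fell from 79.9 ± 2.21 to 53.2 ± 4.90 CPM (log2 fold change -0.59, edgeR adjusted p = 0.012). Rheb, the direct activator of mTORC1, fell with -0.36 (edgeR adjusted p = 0.0497), and missed the threshold in each of its 13 alternatives (0.0506 to 0.45). Gatsl2, of the arginine sensor family, rose with 0.45 and Fnip2, a partner of folliculin, with 0.33. Gatsl2 passed in 8 of 13 alternatives and Fnip2 in 3, and Fnip2 was at 0.16 (adjusted p = 0.24) with length and GC trends removed and at 0.14 (0.49) with the replicate block added.

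**Figure D4:**
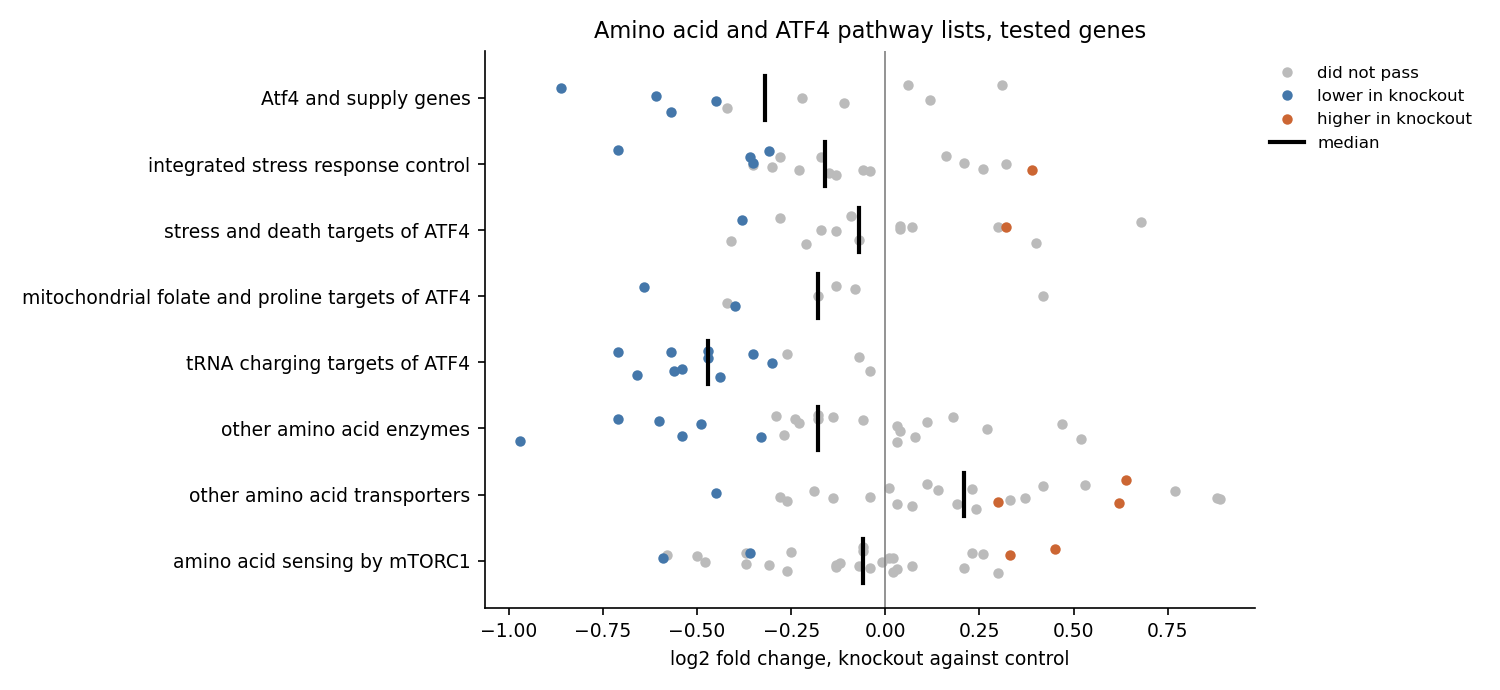
Log2 fold change, knockout against control (x axis), of every tested gene of the set and of the 7 pathway lists (rows; blue: lower, orange: higher, grey: did not pass; black bar: median; vertical scatter within a row has no meaning). The tRNA charging row lies wholly below 0 with a median of -0.47. The row of other transporters has its median above 0, at 0.21 (0.10 with length and GC trends removed, not drawn).

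Among 8821 other genes with a mean of at least 10 CPM, those whose log2 CPM (with 1 added to the CPM), centred on the control mean, came closest to that of Asns over the 5 libraries were Ccdc117, Lap3 and Hopx. Their root mean square differences from Asns were 0.044, 0.055 and 0.062 on the log2 scale. Lap3, a leucine aminopeptidase that frees amino acids from peptides, was at 63.7, 64.8 and 66.5 CPM in the controls and at 36.6 and 38.9 CPM in the knockouts. Ccdc117 was at 52.6, 61.3 and 59.96 CPM and at 32.1 and 35.5 CPM, and Hopx, a small homeodomain protein, at 14.7, 18.2 and 16.5 CPM and at 8.80 and 9.68 CPM. These genes were picked for their likeness, which is a description of 5 libraries.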

How the data were processed

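Gene counts were used as the authors deposited them, in 1 table with raw, whole-number values by symbol whose totals differ between libraries. Per the submitters' processing notes, which give no role or order, the tools were HTSeq 0.6.1, TopHat2 2.0.13, DESeq2, Trim Galore 0.3.7 and Cufflinks 2.2.1, and the build was mm10. The sources used here give no annotation, strand setting or rule for the choice of symbols. Groups and replicate numbers came from the titles. The series calls the libraries biological replicates, and p-values cover only the spread between the pools. Pairs of libraries of a group differed beyond sampling noise (chi-square over degrees of freedom of 9.98 to 23.39).

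Counts were tested in R 4.3.3 with edgeR 4.0.16 (filterByExpr with a minimum count of 10, TMM, glmQLFit and glmQLFTest, no covariate, Benjamini-Hochberg over 12035 genes). SE is the log2 fold change over the root of F, and intervals use the total degrees of freedom. CPM use TMM-scaled totals. Positions, lengths and GC content came from GENCODE vM21 (GRCm38), for 98.1% of tested genes, and promoters from RefSeq (GRCm38.p6). On simulated data with 200 of 12035 genes changed and 1 spread for all genes, it recovered 26.8% of 1.5-fold and 86.8% of 2-fold changes. The fit to the data called 1984 genes, more than were changed in a simulation, so these rates need not hold there. A mean of 7.2 unchanged genes per simulation were called. A gene that did not pass is thus not shown to be unchanged. Alternatives to the edgeR fit were DESeq2 1.42.0, limma-voom (limma 3.58.1), other scalings, no filter, leaving out each library, a replicate block and a length and GC correction (loess, span 0.5).

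The members and lists were chosen with earlier results of these data known. Named genes were the members, Mycn, up to 4 called genes of each list by smallest adjusted p, and the 3 genes most like the member with the smallest p. Others are marked where named, and 1 gene that the rule takes is not reported here.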

Additional observations from a re-analysis of the deposited data

How the results depend on the processing

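Of the 13 alternatives, DESeq2, limma-voom, DESeq2 size factors, no filter and leaving out knockout replicate 2 gave the same 4 genes of the set lower. The number lower was 2 with length and GC trends removed and 1 (Slc7a1) when a replicate block was added to that correction. It ranged from 0 to 4 when single libraries were left out. The number higher was 1 (Phgdh) with library totals only, and ranged from 0 to 1 without single libraries. Over all genes 637 were lower and 1511 higher with library totals only, 418 higher with length and GC trends removed, and 17 to 1291 lower and 21 to 1426 higher without single libraries. The replicate block gave 522 lower and 473 higher genes (81 and 62 with the length and GC correction), and kept 3 of the set lower (Asns, Psat1 and Slc7a1), with Slc7a11 at an adjusted p of 0.074. The titles give the groups shared replicate numbers but no pairing, and deviations of same-numbered libraries correlated at -0.0934 and 0.00727. With 2 knockout libraries, the deviations of each mirror those of the other. These correlations are therefore not independent and cannot decide whether libraries were paired. The sign of Slc7a5 turned with the length and GC correction (-0.21), with the block added (-0.24) and without knockout replicate 1 (-0.0002, against up to 0.12 without other libraries), and that of Slc1a5 in the first of these (-0.09) and the second (-0.16). That of Ddit3 turned to 0.01 with library totals only and with the length and GC correction, and ran from -0.19 to 0.01 without single libraries. Of 403 values of 31 other genes (27 taken by the rule for named genes and 4 outside it), 254 kept direction and side of the threshold, 145 kept direction but no longer passed, and 1 newly passed. Causes were not tested, except that leaving out a library leaves fewer samples, and a group left with 1 knockout library is assumed to vary like the controls. At 77 to 141 counts, Psph had the widest interval of the set.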
